A study of Mus musculus with 12 samples.

Results

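Basal gene expression in the medial prefrontal cortex (PFC) was compared between Fyn-null mice and control mice that had received saline only. Of the 12 Affymetrix whole-genome mouse arrays of PFC, 6 belong to this comparison: control saline replicates 1, 2 and 3, and Fyn-null saline replicates 2, 3 and 4, chosen by their labels. Every mouse was an adult male, obtained at 12 weeks of age and then habituated to the facility. Each was further habituated by saline injections on the days before, then received saline, and was killed 4 hours later. Control mice were B6129SF2/J. Fyn-null mice were B6;129S7-Fyntm1Sor/J, a line with a germline disruption of Fyn, so that the gene was affected in all cells and throughout development. Each array holds RNA from the tissue of 3 mice of one genotype, so a replicate below is a pool of mice and not a single animal. The other 6 arrays, of mice given 3 g/kg ethanol, served for the estimate of the spread and for a second look at single genes. The genotypes were kept as separate stocks, so Fyn genotype and stock cannot be told apart. All values are log2 RMA values, and every difference is the mean of the 3 Fyn-null pools minus the mean of the 3 control pools on that scale.

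Fyn is a tyrosine kinase of the Src family that sits at the inner face of the cell membrane. In neurons it phosphorylates the GluN2B subunit of the NMDA receptor, among other substrates, and mice without it are known for greater sensitivity to the sedative action of ethanol. In oligodendrocytes it acts downstream of adhesion molecules and promotes differentiation and local synthesis of myelin basic protein. Glutamate receptors and myelin are therefore the gene groups for which a basal difference was looked for first.

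Fyn itself did not part the saline groups as labelled. The probe set of Fyn with the higher mean read 9.31, 8.74 and 9.65 in control saline replicates 1, 2 and 3, and 8.89, 8.64 and 9.45 in Fyn-null saline replicates 2, 3 and 4. The pool labelled control saline replicate 2 lay with Fyn-null saline replicates 2 and 3. Likewise, Fyn-null saline replicate 4, as labelled, lay with control saline replicates 1 and 3. The difference was -0.24 with a standard error of 0.23, and without both of those pools it was -0.72 with a standard error of 0.16 (limma, adjusted p = 0.164). The other probe set of Fyn ran 7.65, 7.53 and 7.91 in the control pools and 7.61, 7.50 and 7.75 in the Fyn-null pools, a difference of -0.08. The sources used here do not say whether either probe set overlaps the part of the gene that was disrupted. How far either probe set can test a label is therefore not known.

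Genes other than Fyn split the saline pools likewise. When the ethanol arrays were fitted alone, limma called 64 genes between control and Fyn-null mice (0.519% of the 12323 genes tested), and the saline pools took no part in choosing them. For each of these genes, a saline pool was placed on the side of the control ethanol mean or of the Fyn-null ethanol mean, whichever was nearer. Of the 64 genes, the pool labelled control saline replicate 2 lay on the Fyn-null side in 59, against 15 in replicate 1 and 21 in replicate 3. Fyn-null saline replicates 2 and 3 lay on the Fyn-null side in 61 and 56 genes, whereas the pool labelled Fyn-null saline replicate 4 did so in 14. As labelled, the saline groups overlapped in every one of the 64. These genes, too, cannot separate Fyn genotype from stock.

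Several of the 64 genes are far apart. Serpina3n, a serine protease inhibitor of reactive astrocytes, read 8.47, 6.39 and 7.94 in the control pools and 6.15, 6.04 and 8.81 in the Fyn-null pools. Cap1, which binds actin monomers, read 7.58, 5.86 and 9.05 in the control pools and 5.66, 4.75 and 9.27 in the Fyn-null pools. Gdpd3, a lysophospholipase D, read 6.06, 4.30 and 7.24 in the control pools and 4.13, 4.84 and 7.24 in the Fyn-null pools. In each of these genes control saline replicate 2 was with the low values and Fyn-null saline replicate 4 with the high ones. The same split was seen in Gnb1, a G protein beta subunit, at 10.58, 9.14 and 11.12 against 9.05, 9.94 and 10.84. Krt12, a keratin, split in that way too, at 6.65, 5.76 and 7.63 against 5.60, 5.55 and 7.84. Rpgrip1, a ciliary protein, ran the other way and less clearly, at 8.08, 9.37 and 8.78 in the control pools and 9.29, 9.12 and 8.90 in the Fyn-null pools. For these reasons the labels are kept as given, the pools are called by their labels, and results are also given without control saline replicate 2 and without its counterpart, Fyn-null saline replicate 4, together called the doubted pools below. That choice was made with earlier results of these data known, leaves 2 pools in each saline group and by itself favours larger differences.

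**Figure D1:**
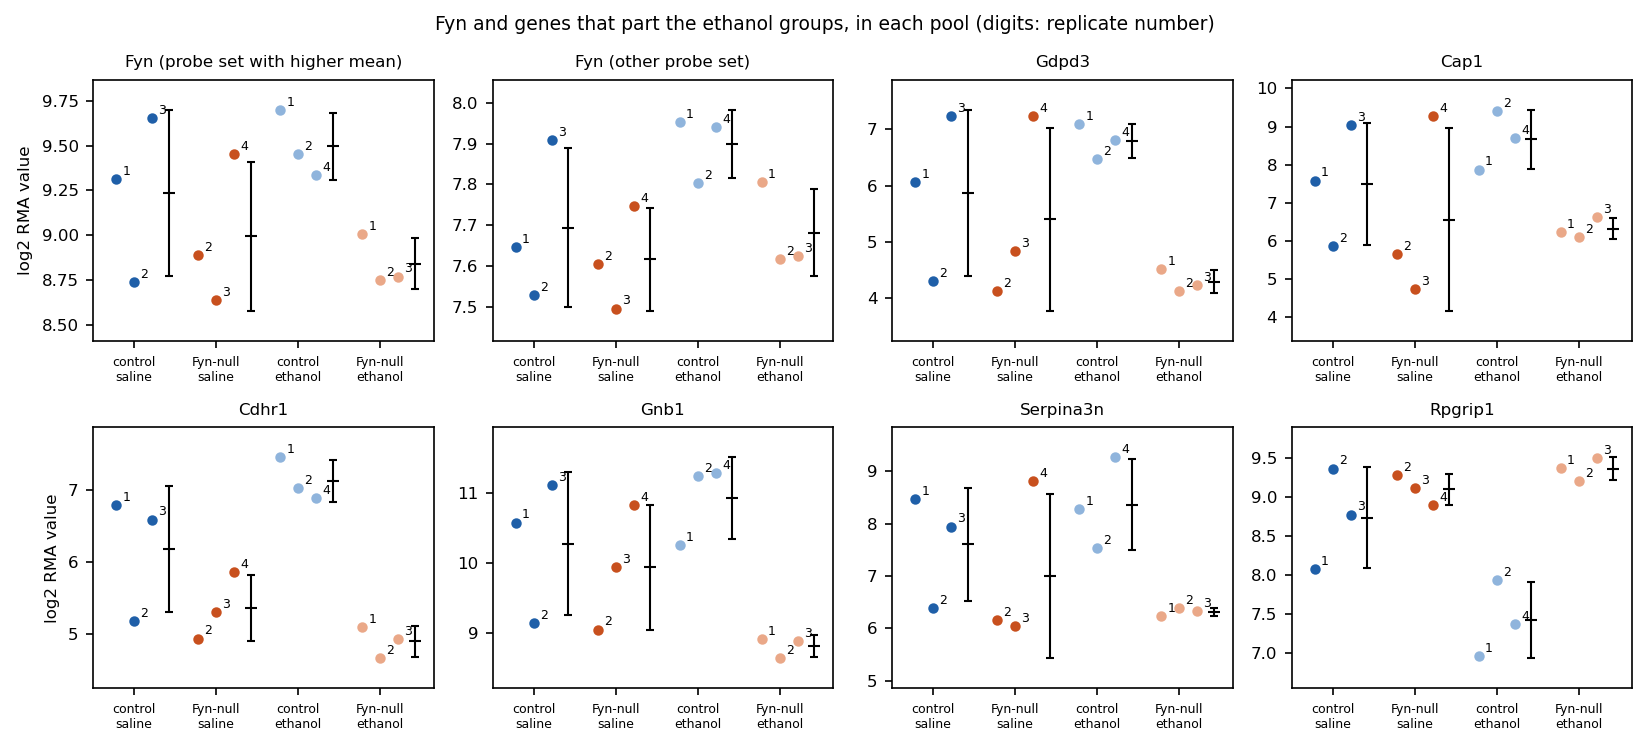
The log2 RMA value of both probe sets of Fyn and of 6 genes called between the ethanol groups is plotted for each of the 12 pools, with the replicate number beside each point and the mean and SD (n = 3) beside each group. In the saline groups, control replicate 2 sits beside Fyn-null replicates 2 and 3 for Fyn, at 8.74 against 8.89 and 8.64, and Fyn-null replicate 4 sits among the controls at 9.45.

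Over all genes the saline groups were close. With all 6 pools, 0 of 24770 probe sets passed limma at an adjusted p under 0.05, and 467 probe sets (1.89%) had an unadjusted p under 0.05. The median absolute difference over the 12323 genes was 0.057, and the median standard error of a probe set was 0.11. Saline pools correlated at 0.980 to 0.993 with one another, and the ethanol arrays were left out of this comparison. The pool labelled control saline replicate 2 was closest to Fyn-null saline replicate 2, at 0.993. Control saline replicate 3 was closest to Fyn-null saline replicate 4, at 0.990. Control saline replicate 1, however, was closest to control saline replicate 2, at 0.989, which goes against the split described above. In 652 genes (5.29%) the 3 Fyn-null values did not overlap the 3 control values, with 403 higher in Fyn-null mice (3.27%) and 249 lower (2.02%). Such genes are called apart below, and these shares are the background for every saline count below. Between the ethanol groups 2581 genes (20.9%) did not overlap, which is the background for each gene said below not to overlap under ethanol. The ratio of 3′ to 5′ signal, a sign of RNA quality, was 1.97, 2.12 and 2.74 for Actb in the control pools and 2.48, 2.66 and 2.50 in the Fyn-null pools, and its part in any difference was not tested.

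The gene with the smallest p was Dubr, a long noncoding RNA gene. Dubr read 5.24, 5.45 and 5.27 in the control pools and 5.81, 5.98 and 5.79 in the Fyn-null pools. All 3 Fyn-null pools were above all 3 control pools, including those that had stood with the other genotype. The difference was 0.54 with a standard error of 0.093 (unadjusted p = 7.48e-05, adjusted p = 1.00, limma), a fold of 1.45, and it lay between 0.48 and 0.61 when any 1 saline pool was left out. Without both doubted pools it was 0.64 (adjusted p = 0.056). In the ethanol groups the difference was 0.43, and there too the pools did not overlap. Dubr thus kept to the labels in every saline pool, but it was chosen by its p between the groups as labelled. Its order therefore cannot serve as a check of the labels.

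Hcrtr2, the type 2 receptor of the wake-promoting orexin peptides, was also higher in each Fyn-null pool. Hcrtr2 read 4.86, 5.21 and 5.04 in the control pools and 5.39, 5.32 and 5.33 in the Fyn-null pools, a difference of 0.31 (standard error 0.092). Under ethanol its difference was -0.11, with the Fyn-null pools all below the control pools. Fam110a, which encodes a protein of the centrosome, had tight groups, at 5.30, 5.20 and 5.26 against 5.57, 5.56 and 5.57, with a difference of 0.31. Lamc3, a laminin gamma chain of basement membranes, was at 5.15, 4.96 and 4.94 against 5.28, 5.34 and 5.30. All of these are dim probe sets near the median of the arrays, and none has a second probe set among those tested.

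**Figure D2:**
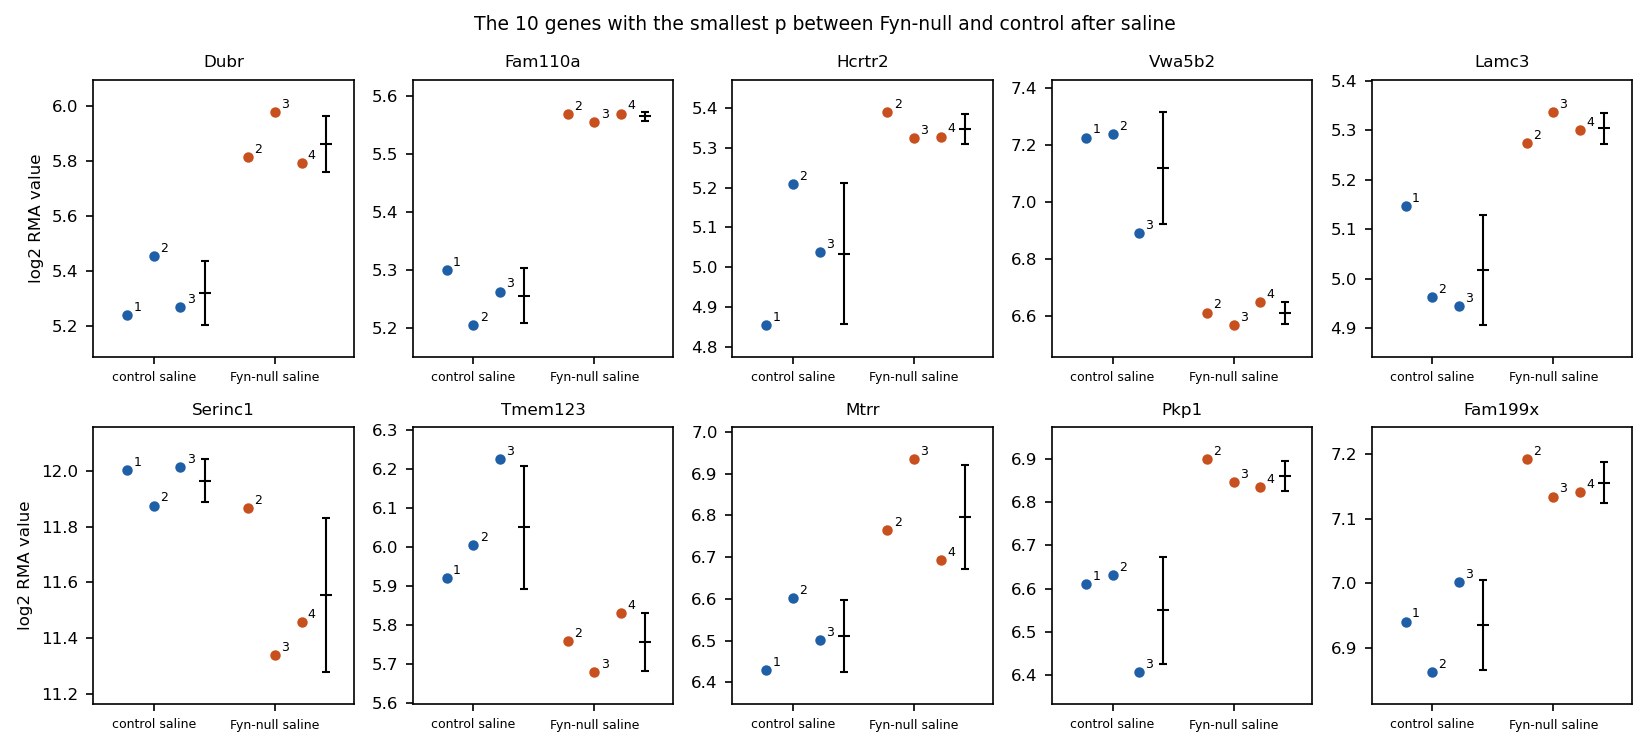
The log2 RMA value in each saline pool is plotted for the 10 genes with the smallest p, with the replicate number beside each point and the mean and SD (n = 3) beside each group. No gene's groups overlap, and the largest difference belongs to Dubr, with Fyn-null pools between 5.79 and 5.98 and control pools between 5.24 and 5.45.

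Among the genes with the smallest p, Serinc1 had by far the highest signal. Serinc1, which is named for a role in carrying serine into membrane lipids, read 12.01, 11.88 and 12.02 in the control pools and 11.87, 11.34 and 11.46 in the Fyn-null pools. Its difference was -0.41 (standard error 0.12), and -0.41 without the doubted pools. With all pools its other 3 probe sets were below 0 too, but without the doubted pools they were at 0.048, 0.15 and 0.15, and each was lowest in Fyn-null saline replicate 4. The margin between the groups rests on Fyn-null saline replicate 2, which was lower than control saline replicate 2 by less than the standard error. Vwa5b2 read 7.23, 7.24 and 6.89 against 6.61, 6.57 and 6.65, a difference of -0.51, but its other probe set differed by 0.01. Mtrr, the methionine synthase reductase of the folate cycle, was at 6.43, 6.60 and 6.50 against 6.76, 6.93 and 6.69, with a difference of 0.29. Pkp1, a desmosome plaque protein, had a difference of 0.31, Fam199x one of 0.22 and Tmem123 one of -0.29.

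Among genes with groups that did not overlap, the lowest differences were mostly larger in size than the highest ones. Dubr, at 0.54, was however exceeded in size only by Mid1. Mid1, a ubiquitin ligase that binds microtubules, read 6.45, 6.36 and 6.25 in the control pools and 5.96, 5.27 and 5.58 in the Fyn-null pools. Its difference of -0.75 (standard error 0.26) was the largest in size in that set of genes, and under ethanol it was -0.13. Trpc5, a calcium-permeable cation channel of cortical neurons, read 5.39, 5.53 and 5.74 against 5.23, 4.63 and 5.37. The Trpc5 difference was -0.47 after saline and -0.79 after ethanol, with no overlap in either, though Fyn-null saline replicate 4 came close to the lowest control pool. Socs6, a suppressor of cytokine and receptor kinase signalling, read 6.51, 6.48 and 6.54 against 6.45, 5.85 and 6.04, and its other probe set differed by 0.03. Speg, a kinase of muscle cells, was at -0.42 with its 4 probe sets divided in sign. Urb1, Pwwp2a and Zfp931 were at -0.36, -0.35 and -0.32.

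At the other end, Tmem241 was at 0.34 and Hnf4a, a nuclear receptor of liver and gut, at 0.33. Chst3, which sulphates chondroitin chains of the extracellular matrix, read 5.30, 5.33 and 5.20 in the control pools and 5.65, 5.59 and 5.55 in the Fyn-null pools, and its ethanol difference was -0.25. Atf5, a transcription factor of the stress response, read 6.31, 6.39 and 6.18 against 6.51, 6.78 and 6.52. Col26a1, Ccl28 and Nuak2 had differences of 0.32, 0.32 and 0.31. Of the genes above, Dubr, Trpc5 and Mtrr had groups that did not overlap in the same direction under both treatments.

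Glutamate receptor genes were described by subunit class. Of 8 measured NMDA and AMPA subunits, 0 had groups that did not overlap, and their median difference was 0.036, beside 0.0068 over all genes. When every probe set of a gene was averaged, in place of the brightest, that median was -0.067. Grin2b, which encodes the GluN2B substrate of Fyn, read 8.96, 9.40 and 9.38 in the control pools and 9.33, 9.60 and 9.36 in the Fyn-null pools, a difference of 0.18 (standard error 0.16). Its groups overlapped, since only control saline replicate 1 was low, and 1 of its 4 probe sets was of the other sign, at -0.25. Gria1, an AMPA subunit, was at 0.13 with a second probe set at -0.32, and Gria3 was at -0.02 with a second probe set at -0.29.

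The kainate class held both glutamate receptor genes whose groups did not overlap, of 7 measured genes (5 kainate and delta subunits and the accessory proteins Neto1 and Neto2). Grik3 read 7.83, 7.65 and 8.15 in the control pools and 7.63, 7.28 and 7.50 in the Fyn-null pools, a difference of -0.41 (standard error 0.13). The other probe set of Grik3 differed by 0.18, and under ethanol the first differed by -0.05. Grik4 read 6.40, 6.47 and 6.65 against 6.29, 6.33 and 6.19, a difference of -0.24, and 0.01 under ethanol. The median of these 7 genes was 0.033. Among 6 metabotropic receptors the median was -0.041 with no gene apart, and the smallest p belonged to Grm8 at -0.07. Neto1, an accessory protein of kainate and NMDA receptors, was at -0.04.

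Postsynaptic scaffolds and presynaptic proteins had 0 genes apart among 13 and 20 measured, with medians of -0.020 and 0.012. Dlg4, which encodes PSD-95 and anchors Fyn near the NMDA receptor, read 9.11, 9.35 and 8.90 in the control pools and 9.03, 9.64 and 8.81 in the Fyn-null pools, a difference of 0.04 (standard error 0.22). The other probe sets of Dlg4 were of the other sign, at -0.13 and -0.08, with overlapping groups. Dlgap1, a scaffold that binds PSD-95, was at -0.14, and Homer1 was at -0.03. All 5 probe sets of Homer1 were below 0, and another of them was apart at -0.13. Dnm3, a dynamin of dendritic spines, was at 0.09, and its 5 probe sets ranged from -0.84 to 0.09. Syt2, a calcium sensor of synaptic vesicles, was at 0.10.

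The kinases around Fyn and its partners were also close between the groups. Among 9 measured Src family kinases and regulators other than Fyn, 0 were apart and the median was 0.041. Src read 8.07, 8.38 and 8.13 in the Fyn-null pools and 8.12 and 8.31 in control saline replicates 2 and 3, with control saline replicate 1 the lowest of the 6 pools, and its difference was 0.05 (standard error 0.12). The other Src probe set differed by 0.23 with overlapping groups, and by 0.56 without the doubted pools (limma, adjusted p = 0.14). Fgr, a Src family kinase of microglia and other myeloid cells, had the smallest p of them at 0.16. Of 21 substrates and partners of Fyn, 1 was apart. That gene was Mapt, which encodes tau, at 11.57, 11.64 and 11.63 against 11.45, 11.55 and 11.39, a difference of -0.15, but the other 3 of its 4 probe sets were above 0, up to 0.38. Qk, an RNA-binding protein of oligodendrocytes and a Fyn substrate, was at -0.23 with overlapping groups. Microtubule proteins had a median of -0.048 over 21 genes, 14 of them below 0, and Map6, a microtubule stabiliser, was the other one apart, at -0.09. The list median stayed below 0 without any 1 saline pool, from -0.066 to -0.021.

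Ion channels showed small differences with few genes apart. Of 30 voltage-gated potassium channel genes, 1 was apart. Kcnip4, which modulates Kv4 channels, read 9.27, 9.24 and 9.28 in the control pools and 9.06, 9.07 and 8.90 in the Fyn-null pools, a difference of -0.25 (standard error 0.11). Its other 2 probe sets were below 0 with all pools and at 0.098 and 0.032 without the doubted ones. The Kv4 channel gene Kcnd2 was at 0.03, with other probe sets at -0.04 and -0.32. Kcna2, of the juxtaparanodes of myelinated axons, was at -0.14. Of 18 genes of inward rectifier, two-pore and related potassium channels, 3 were apart and all 3 were higher in Fyn-null mice, a share of 16.7% beside 5.29% over all genes. Those were the sodium-activated channel Kcnt1 at 0.11, the leak channel Kcnk3 at 0.13 and the leak channel Kcnk4 at 0.09, where control pools were all 6.15 and Fyn-null pools 6.29, 6.24 and 6.19. Kcnt1 and Kcnk4 were at 0.20 each under ethanol, again without overlap, whereas Kcnk3 was at -0.06 there.

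Of 20 voltage-gated calcium and sodium channel genes, Scn8a alone was apart. Scn8a, the Nav1.6 channel of the axon initial segment and of nodes of Ranvier, read 10.12, 10.28 and 10.23 in the control pools and 10.38, 10.41 and 10.32 in the Fyn-null pools. Its difference was 0.16 (standard error 0.082), and all 4 probe sets were above 0. Scn1a was at -0.08, with other probe sets at -0.46 and -0.22. Cacna2d1 was at 0.04, and its other probe set at -0.18. Of 9 GABA-A receptor subunits, Gabrb1 was apart at 0.07, with 1 of its 3 probe sets at -0.30. Gabra2, a subunit tied to ethanol responses, read 8.47, 7.49 and 8.34 in the control pools and 7.72, 7.71 and 7.90 in the Fyn-null pools. Its difference of -0.32 became -0.69 without the doubted pools, since control saline replicate 2 was the lowest of the 6. Calcium-calmodulin kinases had a median of -0.059 over 12 genes, 10 of them below 0, and Camk2g was apart at -0.07.

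Myelin and oligodendrocyte genes were mostly, but slightly, lower in the Fyn-null pools. Of 24 measured genes 19 were below 0 and 5 above, with a median of -0.072, while 53.4% of all genes were above 0. In pooled tissue, fewer cells of a type and less RNA per cell cannot be told apart, which holds for the markers of all cell types below. None passed the test, and 2 had groups that did not overlap (8.33%), 1 in each direction. Without any 1 saline pool the median lay between -0.081 and -0.029, and without both doubted pools it was -0.064, with 8 genes above 0.

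Mbp, the myelin basic protein that compacts the sheath, read 12.04, 12.02 and 11.98 in the control pools and 11.86, 11.64 and 12.08 in the Fyn-null pools. Fyn-null saline replicates 2 and 3 were below every control pool and Fyn-null saline replicate 4 was above them all. The difference was -0.15 (standard error 0.12), all 8 probe sets were below 0, and without both doubted pools it was -0.26. Under ethanol it was -0.34 and the groups did not overlap. Mal, a raft protein of compact myelin, read 8.21, 8.04 and 8.18 against 7.94, 7.98 and 8.16, a difference of -0.11. Ugt8a, the enzyme that makes the main myelin glycolipid, read 7.51, 7.33 and 7.55 against 7.17, 7.00 and 7.74. Its difference was -0.16 as labelled, -0.44 without both doubted pools and -0.45 under ethanol.

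Cldn11, the tight junction protein of the myelin sheath, had the lowest difference of the list at -0.26 (standard error 0.12). It read 7.29, 7.16 and 7.35 against 7.26, 6.69 and 7.05, so that the low value of Fyn-null saline replicate 3 carried most of it. Its ethanol difference was -0.08. Ndrg1, a stress-responsive protein of myelinating cells, was at -0.18 after saline and 0.15 after ethanol. Olig2, the transcription factor of the oligodendrocyte lineage, was the gene apart on the lower side, at 7.01, 6.96 and 6.90 against 6.81, 6.82 and 6.82. Gsn, an actin-severing protein of oligodendrocytes and other cells, was apart on the higher side, at 7.80, 7.67 and 7.70 against 7.92, 7.93 and 7.95, but its other 3 probe sets were not above 0. Tspan2, of the sheath, was at -0.07. Mobp, also of the sheath, was at 0.06, but its other 3 probe sets were at -0.29, -0.14 and -0.21. The precursor list of 7 genes had a median of -0.012 with Bmp4 at 0.20.

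**Figure D3:**
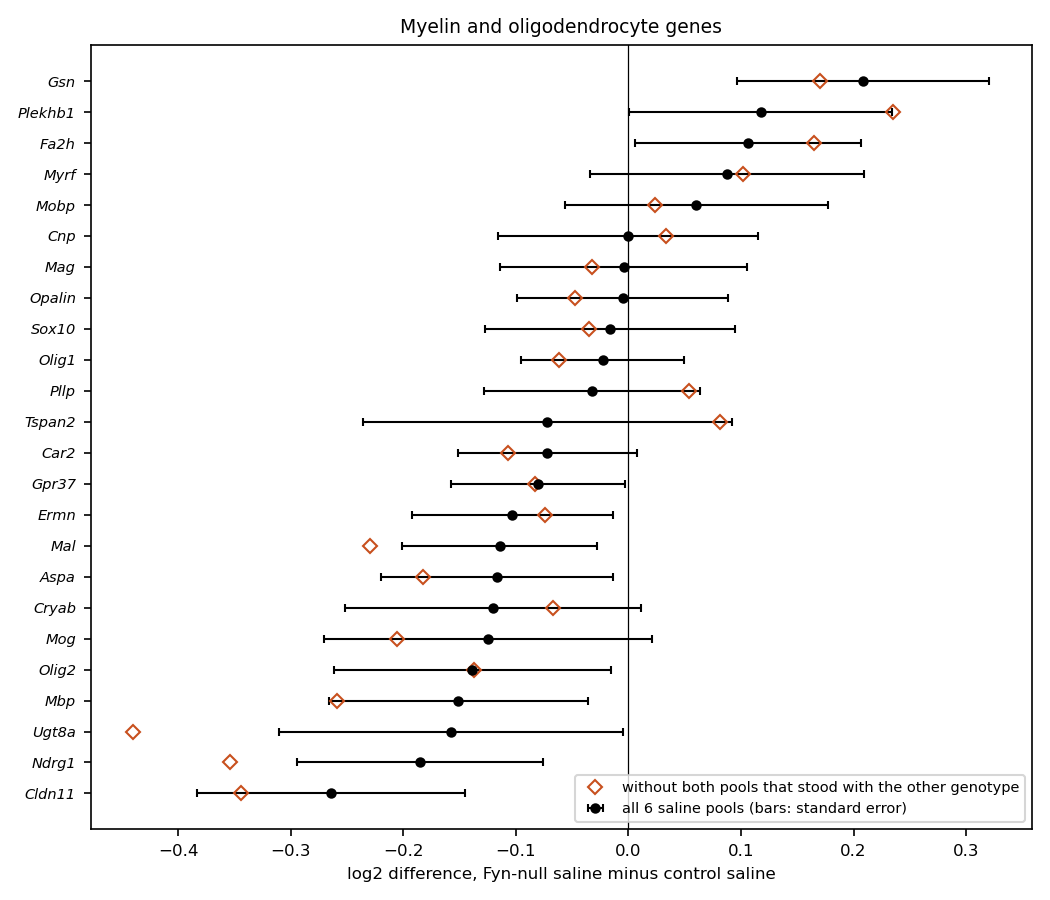
The log2 difference of each of 24 myelin and oligodendrocyte genes is plotted with its limma standard error (black), and without both doubted pools (orange diamonds). Most points lie to the left of 0, from Cldn11 at -0.26 to Gsn at 0.21, with standard errors about as wide as the differences.

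Markers of cortical neurons were present in every pool. Excitatory neuron markers had a median of -0.044 over 9 genes, which became -0.13 without the doubted pools, and 0 of them were apart. Of the 9 genes 3 were above 0, the highest at 0.13. The median ran from -0.081 to 0.069 when any 1 saline pool was left out, and was -0.010 when a gene's probe sets were averaged. Slc17a7, the vesicular glutamate transporter of cortical neurons, read 10.66, 10.13 and 10.50 in the control pools and 10.18, 10.00 and 10.29 in the Fyn-null pools. Neurod6, a transcription factor of pyramidal neurons, read 9.61, 9.15 and 9.67 against 9.11, 8.82 and 9.34. In both genes control saline replicate 2 was lower than the other controls and Fyn-null saline replicate 4 was the highest Fyn-null pool, which is the order seen for Fyn. Under ethanol, Slc17a7 was at -0.48 and Neurod6 at -0.45, and the groups did not overlap in either.

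Of 10 inhibitory neuron genes, Dlx2, a transcription factor of the interneuron lineage, was apart. It read 5.48, 5.51 and 5.38 in the control pools and 5.75, 5.78 and 5.59 in the Fyn-null pools, a difference of 0.25, and it was apart under ethanol too, at 0.14. Bcl11b, a marker of deep-layer projection neurons, was at 0.17 and the only layer marker of 16 apart. Neuropeptide genes were above 0 in 14 of 17, with a median of 0.053 and 0 apart, and the one with the smallest p was Cort at 0.17.

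Astrocyte genes had 3 of 16 apart in both directions, with a median of -0.031. Glul, the glutamine synthetase of astrocytes, read 11.99, 11.94 and 12.03 against 11.93, 11.73 and 11.85, and Mlc1 was at -0.08. Aldh1l1, an enzyme of folate metabolism and a common astrocyte marker, was on the other side at 8.10, 8.12 and 8.18 against 8.25, 8.27 and 8.21, and under ethanol it was apart again at 0.19. Microglia genes had a median of -0.008 over 16, with 8 above 0 and 8 below, from -0.34 to 0.21 for Fcrls. Endothelial and pericyte genes had a median of 0.040 over 19, with Abcc9 at 0.18. Neither list had a gene apart.

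Markers of neighbouring tissue were read for the dissection. Of 6 striatal genes Rgs9, a regulator of striatal G protein signalling, was apart at 0.23, and Ppp1r1b, which encodes DARPP-32, was apart the other way at -0.10. Thalamic markers had a median of 0.026 with 0 of 8 apart and Plekhg1 at 0.17. Ttr, the transthyretin of choroid plexus, was at -0.07, and meningeal genes had a median of -0.028 over 11, with Igf2 at -0.23. Hbb-b2, a globin of red blood cells, read 5.58, 5.08 and 5.65 against 4.90, 5.12 and 5.47, and was at -0.61 without the doubted pools. The part of blood left in the tissue was not tested. Among genes tied to sex, Xist was at 0.29 and Eif2s3y at -0.19, and both were apart. Xist lay between 5.67 and 6.17 in the 6 pools, while Eif2s3y, of the Y chromosome, was between 6.96 and 7.33.

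Activity-regulated genes overlapped between the groups, and the Fyn-null pools were spread more widely than the controls. Of 23 genes 0 were apart, and the median was 0.049. The mean level of the list was 8.42, 8.35 and 8.50 in the control pools and 8.24, 8.79 and 8.43 in the Fyn-null pools, with an SD of 0.077 in control pools and 0.28 in Fyn-null pools. Arc, an immediate early gene of dendrites, read 9.60, 9.17 and 9.59 against 8.84, 10.42 and 9.87. Egr2, an immediate early transcription factor, read 6.35, 6.29 and 6.58 against 5.78, 7.21 and 6.65. Both genes were highest in Fyn-null saline replicate 3 and lowest in Fyn-null saline replicate 2, with the controls between. Btg2 was at 0.27 as labelled and at -0.07 without Fyn-null saline replicate 3.

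Cholesterol synthesis genes had the highest list median, 0.071 over 20 genes with 16 above 0, and 0.16 without the doubted pools. Fdft1, which makes squalene, read 9.56, 9.81 and 9.76 in the control pools and 9.88, 9.89 and 9.90 in the Fyn-null pools, and was apart at 0.18, although 1 of its 3 probe sets was at -0.27. Srebf2, the transcription factor of the pathway, was apart at 0.12, but its other probe set was at -0.07 with overlapping groups. Sc5d, a late desaturase of the pathway, read 7.51, 7.95 and 7.12 against 8.20, 7.93 and 7.21, and Idi1, an isomerase of an early step, read 8.40, 8.61 and 8.42 against 8.84, 8.82 and 8.25. In these probe sets of Sc5d and Idi1 control saline replicate 2 was the highest control and Fyn-null saline replicate 4 the lowest Fyn-null pool. That order is the reverse of the one seen for Fyn. The other Idi1 probe set did not keep that order, at 7.03, 7.38 and 7.55 against 7.72, 7.30 and 7.35. Another Sc5d probe set was apart as labelled, at 7.74, 7.76 and 7.69 against 7.79, 7.89 and 7.81, while the last one kept the order. Without both doubted pools Sc5d was at 0.75 and Idi1 at 0.42, and under ethanol they were at 0.41 and 0.51. The other probe sets were at 0.12 and 0.18 for Sc5d and at 0.22 for Idi1 without both doubted pools. None of these passed the test.

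**Figure D4:**
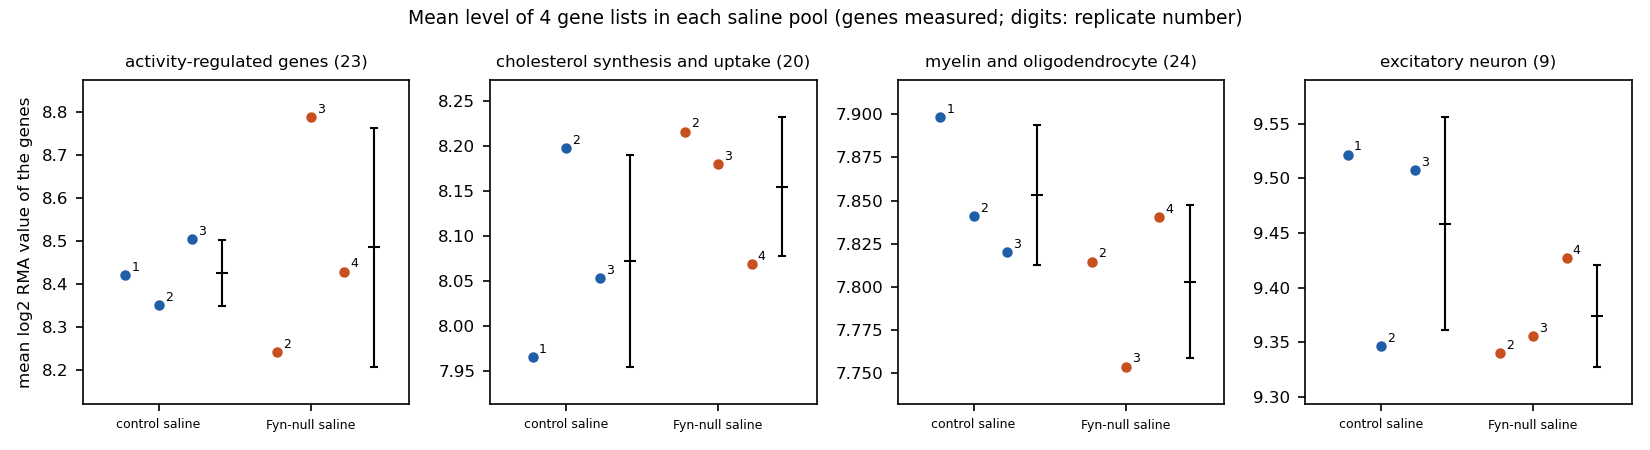
The mean log2 RMA value over the measured genes of 4 lists is plotted for each saline pool, with the replicate number beside each point and the mean and SD (n = 3) beside each group. Fyn-null replicate 3 stands high for activity-regulated genes at 8.79, and for excitatory neuron genes control replicate 2 sits with Fyn-null replicates 2 and 3.

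Stress and clock genes were close. Glucocorticoid-induced genes were above 0 in 14 of 17, with a median of 0.052, and Nfkbia, the inhibitor of NF-kappaB, was the one apart, at 9.47, 9.66 and 9.47 against 9.73, 9.68 and 9.71. Circadian clock genes had a median of -0.032 over 20 and Nfil3 at 0.23, with 0 apart. Of 17 heat shock genes, Bag3, a co-chaperone, was apart at 0.11, and under ethanol it was apart the other way at -0.16. Interferon-stimulated genes had 0 of 11 apart, with H2-D1, an MHC class I gene, at 0.13. Of 7 neurotrophin signalling genes, Ngfr, the p75 receptor, was apart at -0.15.

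Over the 35 lists not chosen by the study, 462 distinct genes were measured and 27 (5.84%) had groups that did not overlap, 15 higher and 12 lower, beside 5.29% of all genes. Of the 462, 9 had an unadjusted p under 0.05 (1.49% of all genes did) and 0 passed limma after adjustment, with all pools or without the doubted ones. The lists that the study drew from its own analysis of these samples are not independent evidence of a direction. Of 17 measured genes that the study names for basal PFC expression, 0 were apart, and their median was -0.031. Among them the study reports Grin2b and Src as increased and Dlg4 and Homer1 as decreased. A median over the list therefore cannot test its directions. Of 44 measured genes of its basal network, 0 were apart, with a median of -0.038. Ptprb, a phosphatase of endothelium from the first list, was at -0.11.

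**Figure D5:**
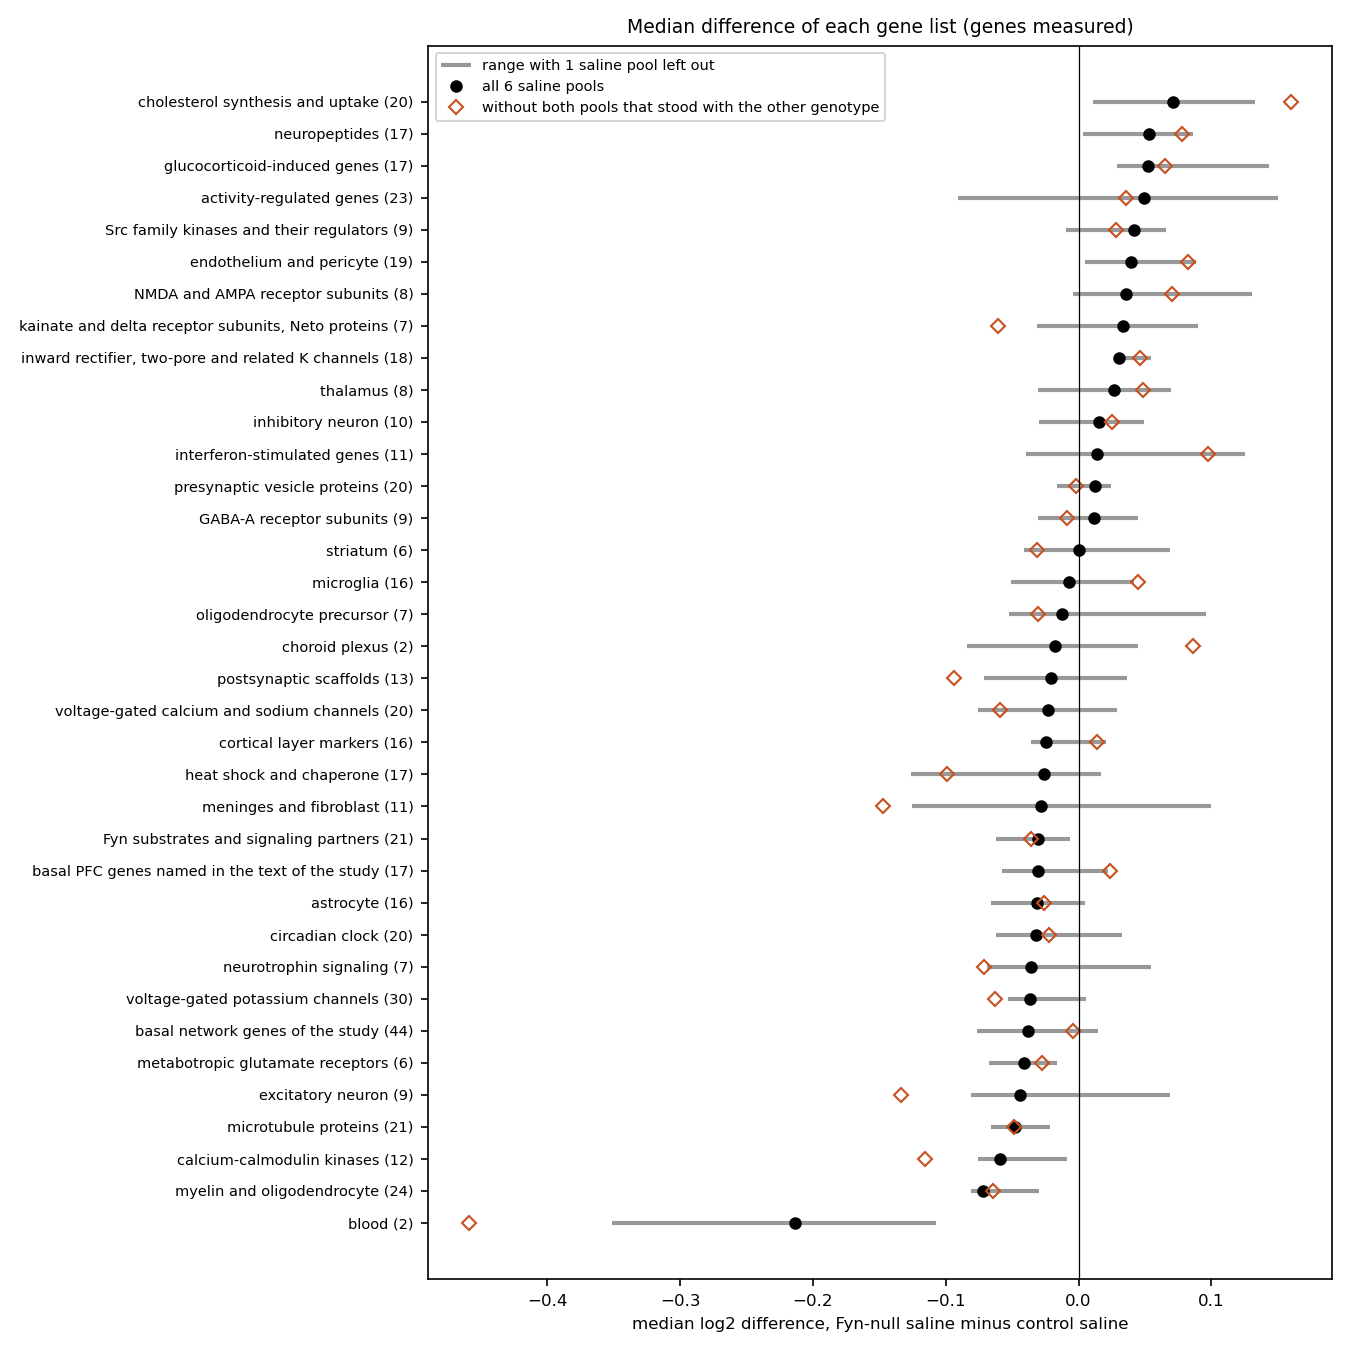
The median log2 difference of each gene list is plotted for all 6 saline pools (black), with the range when 1 saline pool is left out (grey) and the value without both doubted pools (orange diamonds); the number of measured genes stands in parentheses. Medians run from -0.21 for the 2 blood genes to 0.071 for cholesterol synthesis, and most grey ranges cross 0.

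Genes around Fyn on chromosome 10 were read because a targeted allele carries a stretch of the donor strain with it. Of the 10 RefSeq genes on each side of Fyn, 5 were measured, with differences from -0.03 to 0.12 and 0 apart. The highest was Fam229b. Of 45 measured genes within 100 RefSeq places on each side, 3 were apart (6.67%), with a median of 0.024. Serinc1 lies 235 places from Fyn on the same chromosome.

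Leaving out both doubted pools changed the count of calls from 0 to 44 probe sets (0.178%), of which 8 were higher (0.0323%) and 36 lower (0.145%) in Fyn-null pools. At an unadjusted p under 0.05 there were 1927 (7.78%). By the brightest probe set of each gene, 7 genes were called (0.0568%). Those were Gdpd3 at -2.16, Palm2 at -1.61, Cdhr1 at -1.57, Krt12 at -1.56, Mga at -1.38, Ccl27a at -0.91 and Pla2g4e at 0.92. As labelled, each of these overlapped between the groups, with differences from -0.82 for Cdhr1 to 0.35 for Pla2g4e. Cdhr1, a photoreceptor cadherin, read 6.78, 5.18 and 6.59 against 4.94, 5.30 and 5.85, and Palm2, a paralemmin of the membrane, read 8.54, 6.66 and 8.24 against 6.52, 7.04 and 7.83. Mga, a MAX dimerisation protein, read 7.64, 6.98 and 7.39 against 6.51, 5.75 and 7.79, and its other probe set was at 0.10. Pla2g4e, a cytosolic phospholipase A2, read 6.20, 7.39 and 6.71 against 7.35, 7.40 and 6.58. All of these but Mga belong to the 64 genes called in the ethanol arrays, on which the pools were also doubted, so their calls here and their sign under ethanol follow from that choice and are a description only. Mga was at -0.33 under ethanol, where its groups did not overlap. None is a glutamate receptor or myelin gene of the lists above.

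The basal difference was set against that under ethanol in one fit of 12 arrays. The interaction, that is the ethanol-group difference minus the basal difference, had 0 probe sets called by limma and 1023 (4.13%) at an unadjusted p under 0.05. In the 12-array fit the ethanol-group difference had 0 called as well, with 3380 (13.6%) at an unadjusted p under 0.05 and 2581 genes (20.9%) with groups that did not overlap. For Hcrtr2, Chst3 and Bag3, whose saline and ethanol differences had opposite signs, the interaction did not pass either.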

How the data were processed

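The deposited values are on the log2 scale, one per probe set, and the authors made them by RMA with affy, as listed in the submitters' processing notes. No versions of either are given in these sources. Whether the correction for hybridization batch in the Methods reached the deposited values is not stated, nor is the batch of each array, although arrays of one brain region were run together. The study's S-scores were not computed, because they start from probe-level intensities. Control probe sets (64) were left out, and so were the 45% of the other 45037 with the lowest mean over the 12 arrays, leaving 24770. The brightest probe set with 1 gene symbol stood for a gene (12323 genes). RefSeq (GRCm38.p6) served only for names, chromosome and gene order. Some genes are not reported here. The means of the 4 groups were fitted over all 12 arrays with limma 3.58.1 in R 4.3.3 (lmFit, eBayes), and calls were made at an adjusted p (Benjamini-Hochberg) under 0.05. The fit was tested on simulated data. The number of pools limits the precision.

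The comparison, the gene lists and the doubted pools were chosen with earlier results of these data known. Genes named are the 10 with the smallest p, the 10 highest and 10 lowest differences without overlap, up to 3 genes of each list (the smallest p where no gene was apart), those the study names for basal PFC, the 8 largest differences among genes called in the ethanol arrays alone, the nearest genes to Fyn (given as a range) and genes called without the doubted pools. One of the 8, A330076H08Rik, is not described above and was at -0.62. Slc17a7, Sc5d, Idi1, Cldn11, Ndrg1, Arc, Egr2, Gabra2 and Ugt8a were named after their values were seen. The alternatives were testing all probe sets, dropping 60% of them, quantile normalization once more, a block for the replicate number, fitting the 2 groups alone, eBayes with trend and robust, leaving out each array, leaving out both doubted pools, and averaging a gene's probe sets. Replicate numbers were not taken as pairs: 3 of 13 same-number pairs of arrays showed a residual correlation above 0.1, and the range was -0.43 to 0.32.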

Additional observations from a re-analysis of the deposited data

How the results depend on the processing

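The basal count of calls was 0 under every alternative run, whichever single array was left out, except without both doubted pools, where it was 44. With the replicate number as a block, the basal count was 0 as well, with 363 probe sets at an unadjusted p under 0.05. No alternative gave an interaction call. The ethanol-group count, 0 in the fit of 12 arrays, was 193 when only its 2 groups were fitted, 1 with trend and robust, and from 0 to 8 when single arrays were left out.

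Of 109 differences (the genes named in the text and both probe sets of Fyn), 91 kept their sign in every setting. When single saline pools were left out, the second Fyn probe set ran from -0.16 to 0.029, Arc from -0.10 to 0.69, Btg2 from -0.072 to 0.45 and Egr2 from -0.19 to 0.53. Of genes that stood with the other genotype, Gdpd3 ran from -1.38 to 0.22, Gnb1 from -0.91 to 0.11 and Krt12 from -1.10 to 0.12. At the synapse, Dlg4 ran from -0.20 to 0.21, Homer1 from -0.13 to 0.076, Gria3 from -0.094 to 0.064, Neto1 from -0.12 to 0.040 and Src from -0.041 to 0.13. Of channels, Cacna2d1 ran from -0.015 to 0.078, Kcnd2 from -0.047 to 0.13 and Scn1a from -0.23 to 0.022. Mobp ran from -0.023 to 0.14, Tspan2 from -0.22 to 0.067 and Ttr from -0.14 to 0.032. Without both doubted pools Homer1 was at 0.046, Tspan2 at 0.081 and Ttr at 0.12. The other probe sets of Homer1 stayed below 0 there, from -0.35 to -0.084. With the replicate block Egr2 was at -0.033, Gria3 at 0.027 and Scn1a at 0.057. The causes were not tested.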
